A study of Mus musculus with 6 samples.

Results

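The 10 genes described here are 5 membrane mucins (Muc1, Muc4, Muc13, Muc16 and Muc20), 2 secreted mucins (Muc5ac and Muc5b) and 3 genes of mucous glands (Aqp5, Tff3 and Agr2). They were taken by symbol from the 41253 gene symbols of the count files, and all 10 were found. Expression was measured by RNA sequencing of oesophageal squamous cell carcinomas of C57BL/6 mice, 3 mice labelled Ptpro-KO (Ptpro-/-) and 3 labelled WT (Ptpro+/+). Ptpro encodes a receptor-type tyrosine phosphatase. All 6 mice had received the DNA-damaging carcinogen 4NQO in drinking water, at a labelled 100 mg/mL, from 6 weeks of age for 16 weeks. They were killed 12 weeks later, or earlier on weight loss. The design text gives an age of 34 weeks and a sample tag gives week 6.

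Mucins are long glycoproteins whose serine- and threonine-rich repeats carry dense O-linked sugar chains. Membrane mucins stay anchored in the apical surface of an epithelial cell, whereas gel-forming mucins are packed into granules, released and joined into the polymer network of mucus. The mouse oesophagus is lined by a keratinised stratified squamous epithelium and has no submucosal mucous glands. Gel-forming mucins belong to other epithelia, among them the surface cells of the stomach (Muc5ac) and the glands of the airway and mouth (Muc5b).

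The 6 libraries held 25745240 to 39827467 reads on transcripts. The Ptpro reads ran against the genotype labels, with 30.3, 42.8 and 50.6 CPM under the label Ptpro-KO, against 5.05, 0.359 and 2.38 CPM under WT (log2 fold change 3.97, SE 0.85, edgeR adjusted p = 0.0617). CPM are counts scaled to library size. Groups are therefore named as labelled throughout, and every direction is between labels. A list of 14 stratified squamous genes had most reads of the lists examined in every library. Its sum was 28443, 27794 and 22283 CPM in libraries labelled Ptpro-KO and 75432, 66054 and 71815 CPM in libraries labelled WT. Of these 14 genes 6 fell by edgeR, against 2.29% of all tested genes, and none rose. Krt6b, a keratin of activated squamous epithelium, had a log2 fold change of -1.92 (SE 0.17, edgeR adjusted p = 0.0125).

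Replicates 2 and 3 labelled Ptpro-KO stood apart in epithelial genes. A list of 16 stomach genes summed to 20202 CPM in replicate 3 labelled Ptpro-KO, against 233 and 401 CPM in replicates 1 and 2 with that label and 20.01 to 29.3 CPM in libraries labelled WT. Pgc, the pepsinogen C gene of the stomach, reached 6209 CPM in that library. Replicate 2 labelled Ptpro-KO held 774 CPM of the thyroid gene Tg and 6469 CPM of Ltf, the lactoferrin gene of many glands. Without Psca, which is also found outside the stomach, the stomach sums were 34.8, 6.40 and 19710 CPM in libraries labelled Ptpro-KO and 1.07, 0.638 and 0.356 CPM in libraries labelled WT. Skeletal muscle genes summed to 90.8 CPM in replicate 3 labelled Ptpro-KO and 61.0 CPM in WT replicate 2, against 5419 to 12897 CPM in the other 4 libraries. Fibroblast genes summed to 3988, 4515 and 2861 CPM in libraries labelled Ptpro-KO and 1755, 337 and 769 CPM in libraries labelled WT. Of these, 2 of 5 tested rose (Col1a1 and Col1a2), against 1.81% of all tested genes. Leukocyte genes summed to 498, 589 and 302 CPM in libraries labelled Ptpro-KO and 1452, 1208 and 665 CPM in libraries labelled WT. S100a8 made up most of the sums labelled WT, with 1299, 1152 and 593 CPM, against 142, 420 and 68.2 CPM under Ptpro-KO. Of the 6 genes tested none passed by edgeR, and 5 had positive log2 fold changes, with S100a8 the exception. Cd68 and Csf1r were higher in every library labelled Ptpro-KO than in any labelled WT. The part of these cells in the results below was not tested. For the tested mucin and gland genes, fold changes that rest on replicate 2 or 3 are also given without it. In bulk tissue, fewer cells of a type and less RNA per cell cannot be told apart.

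Mucin reads were more abundant in all 3 libraries labelled Ptpro-KO than in any labelled WT, and membrane mucins led in every library except replicate 3 labelled Ptpro-KO. The 5 membrane mucins summed to 16.0, 117 and 108 CPM in libraries labelled Ptpro-KO and to 3.33, 1.20 and 1.96 CPM in libraries labelled WT. The means were 80.2 ± 55.8 and 2.16 ± 1.08 CPM for the labels Ptpro-KO and WT (SD, n = 3 each). The 2 secreted mucins summed to 5.56, 25.5 and 746 CPM in libraries labelled Ptpro-KO and to 0.203, 0.598 and 0.249 CPM in libraries labelled WT. Their means were 259 ± 422 CPM under the label Ptpro-KO and 0.350 ± 0.216 CPM under WT (SD, n = 3 each). The groups did not overlap in either class, but the secreted class rested largely on 1 library.

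**Figure D1:**
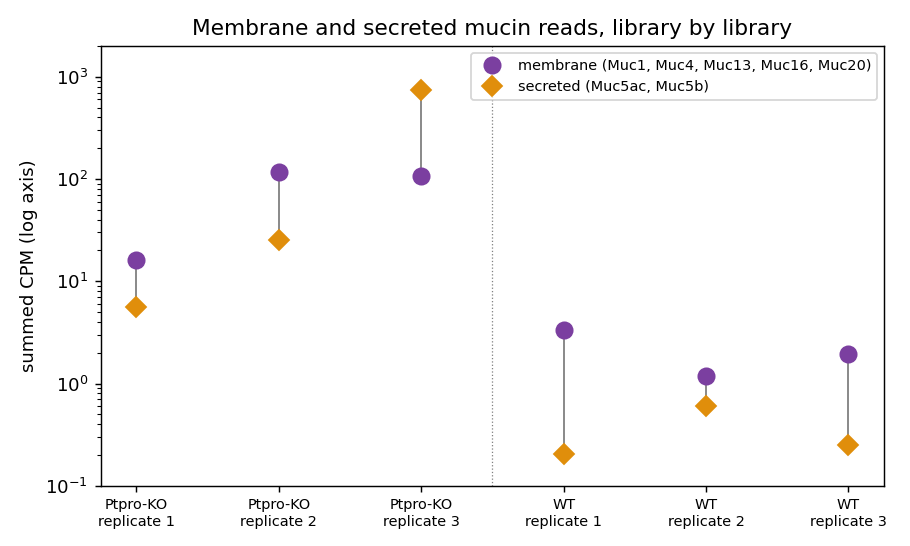
Summed CPM (log axis) of the 5 membrane mucins (circles) and the 2 secreted mucins (diamonds) in each library, with a grey line joining the pair. Replicate 3 labelled Ptpro-KO is the only library in which the secreted class lies above the membrane class, at 746 against 108 CPM.

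The log2 ratio of secreted to membrane mucin reads, with 1 read added to each sum, was -1.52, -2.20 and 2.79 in libraries labelled Ptpro-KO and -3.86, -0.95 and -2.81 in libraries labelled WT. The labels overlapped, with means of -0.31 ± 2.71 for Ptpro-KO and -2.54 ± 1.47 for WT (SD, n = 3 each). Their difference of 2.23 log2 units lay within the spread of the libraries labelled Ptpro-KO, and it was 0.68 without replicate 3 of that label. The WT ratios rest on 7, 15 and 7 secreted mucin reads.

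Levels of different genes can be compared once reads are divided by transcript length, as in the authors' RPKM. By summed RPKM, Muc4 led the 7 mucins in replicates 1 and 2 labelled Ptpro-KO, at 1.20 and 12.8 RPKM. Muc5ac led in replicate 3, at 101 RPKM, where it made up 70.2% of mucin RPKM. Muc1 led in all 3 libraries labelled WT, at 0.308, 0.329 and 0.394 RPKM. Secreted mucins took 19.9%, 9.82% and 70.3% of mucin RPKM in libraries labelled Ptpro-KO and 2.43%, 13.2% and 2.61% in libraries labelled WT.

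Over all 17663 genes tested with edgeR's quasi-likelihood test, 4.10% changed at an adjusted p under 0.05, and 1.81% were higher and 2.29% lower in libraries labelled Ptpro-KO. No gene passed without replicate 2 labelled Ptpro-KO, WT replicate 2 or WT replicate 3, where 4361, 3368 and 3076 genes had an unadjusted p under 0.05 and DESeq2 called 1781, 1272 and 1067 higher. Of the 10 mucin and gland genes 6 had enough reads to be tested, and 1 of them, Aqp5, rose. The other 5 tested genes (Muc1, Muc4, Muc13, Muc5ac and Agr2) had positive log2 fold changes that did not pass. Muc16, Muc20, Muc5b and Tff3 fell below the filter on low counts and are given as reads. A gene that passes that filter through 1 label alone must differ between labels, so the 6 fold changes are not summarised. The lowest library labelled Ptpro-KO lay above the highest labelled WT in 5 of the 6 tested genes (Muc1, Muc4, Muc5ac, Aqp5 and Agr2) and in the untested Muc20, and that pattern was found in 16.8% of all tested genes. Nothing is read from this count, since Muc4, Muc5ac and Aqp5 met the filter only through the label Ptpro-KO.

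**Figure D2:**
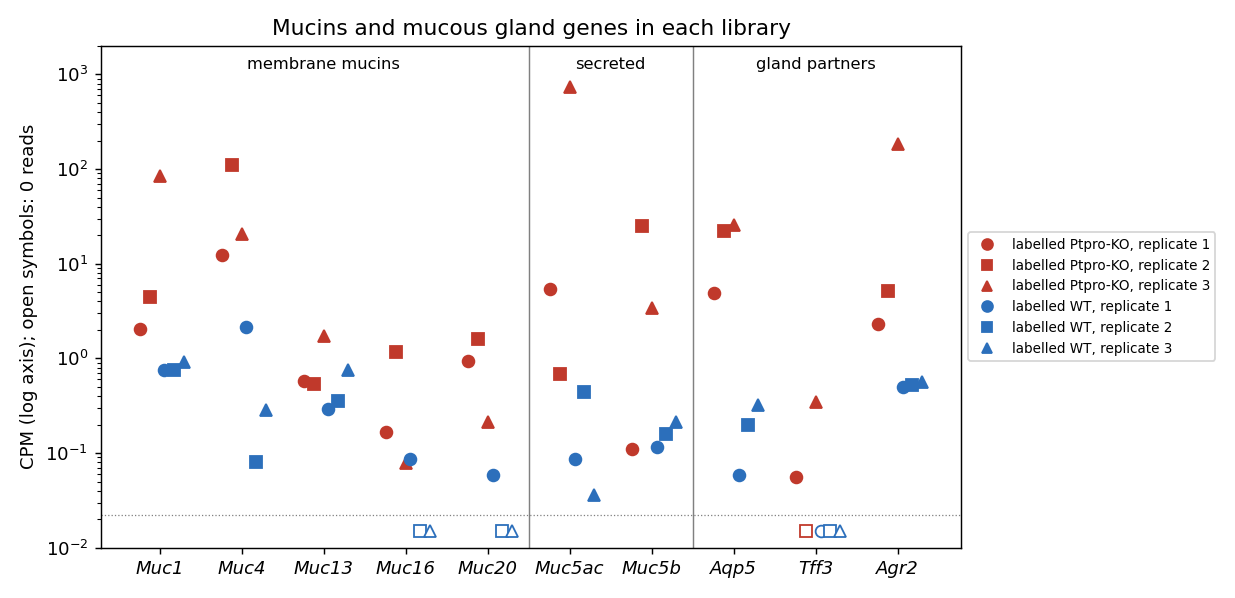
CPM (log axis) of each gene in every library, with the libraries labelled Ptpro-KO in red on the left and those labelled WT in blue on the right, and marker shapes for replicates 1 to 3. Open symbols mark 0 reads, drawn at a fixed height under the dotted line. Replicate 3 labelled Ptpro-KO (triangle) is far above the rest for Muc1, Muc5ac and Agr2, and replicate 2 (square) for Muc4, Muc5b and Muc16.

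Muc1, a membrane mucin of most simple epithelia whose cytoplasmic tail takes part in signalling, lies at chr3:89229057-89233381 (GRCm38). It had 2.05, 4.5 and 84.8 CPM in libraries labelled Ptpro-KO, against 0.754, 0.757 and 0.926 CPM in libraries labelled WT. The libraries labelled WT lay within 0.812 ± 0.0981 CPM (SD, n = 3), while replicate 3 labelled Ptpro-KO was 18.8 times the next library. The log2 fold change was 5.22 (SE 1.58, edgeR adjusted p = 0.117), and it was 2.01 (adjusted p = 0.0765) without that replicate. The other 2 libraries labelled Ptpro-KO, on 74 and 192 reads, still lay above all libraries labelled WT, on 19 to 26 reads.

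Muc4, a large membrane mucin that binds the receptor Erbb2, lies at chr16:32735886-32782391. It had 12.3, 109 and 20.8 CPM in libraries labelled Ptpro-KO, against 2.15, 0.0797 and 0.285 CPM in libraries labelled WT. All 3 libraries labelled Ptpro-KO were above those labelled WT, and here replicate 2 was the highest, at 5.26 times the next library. The log2 fold change was 5.77 (SE 1.44) with an edgeR adjusted p of 0.082. It was 4.25 (adjusted p = 0.139) without replicate 2 labelled Ptpro-KO. DESeq2, which called 9.12% of its genes higher in libraries labelled Ptpro-KO, gave Muc4 an adjusted p of 0.000782.

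The start regions of both genes are printed because they are the membrane mucins with most reads. Each runs from 250 bases before to 50 after the start of the RefSeq gene (GRCm38.p6), 5′ to 3′ on the gene's own strand, which is plus for both. Muc1 is at chr3:89228806-89229105 and Muc4 at chr16:32735636-32735935. Capitals mark matches on either strand to TATAAA, the TATA box, to GGGCGG, the GC box, or to GAGGAA, which holds the GGAA core of ETS factor sites.
Muc1: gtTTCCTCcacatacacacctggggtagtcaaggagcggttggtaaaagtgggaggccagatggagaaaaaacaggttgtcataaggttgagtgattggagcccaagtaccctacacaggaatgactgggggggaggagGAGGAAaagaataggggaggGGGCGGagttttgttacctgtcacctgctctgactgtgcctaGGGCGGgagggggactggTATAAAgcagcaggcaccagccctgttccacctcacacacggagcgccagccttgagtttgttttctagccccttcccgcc
Muc4: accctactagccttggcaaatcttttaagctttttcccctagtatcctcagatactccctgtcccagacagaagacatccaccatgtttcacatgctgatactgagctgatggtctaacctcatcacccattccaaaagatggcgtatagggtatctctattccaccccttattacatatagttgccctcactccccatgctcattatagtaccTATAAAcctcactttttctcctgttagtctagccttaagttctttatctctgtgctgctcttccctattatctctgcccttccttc
TATAAA began 31 bases before the start in Muc1 and 36 before it in Muc4, and 13.6% of 32851 RefSeq promoter windows of this length hold it. Muc1 held GGGCGG at positions -91 and -49, a motif in 35.7% of windows, and GAGGAA at -111 and, on the minus strand, at -248, a motif in 28.3%. Also searched were TGTTTAC (forkhead factors), TGACTCA (AP-1) and TTCNNNGAA (STAT factors), which occurred in 3.65%, 5.2% and 8.3% of windows and in neither of these 2. No printed matches overlap. RefSeq promoter windows were at hand for 7 of the 10 genes.

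Muc20, a membrane mucin known in human cells to bind the receptor MET, lies beside Muc4 on the minus strand, at chr16:32777419-32797435. It had 34, 69 and 8 reads in libraries labelled Ptpro-KO, against 2, 0 and 0 reads in those labelled WT. Summed over each label, this was a ratio of 46.3 per total reads, with a 95% interval of 12.5 to 387 that covers counting error only. All 3 libraries labelled Ptpro-KO were above those labelled WT, with replicate 2 highest, as for Muc4.

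The annotated spans of Muc4 and Muc20 overlap over 4973 bases, from 32777419 to 32782391, and whether counting used strand is not stated. Of the Muc20 reads 95.6% were listed under a transcript whose lower end is at 32786040, outside the overlap. In the authors' deposited FPKM table, Muc20 reached 3.56 FPKM in replicate 2 labelled Ptpro-KO, against 0.630 and 0.383 FPKM in replicates 1 and 3 and at most 0.0522 FPKM in libraries labelled WT. The Muc20 promoter (chr16:32797386-32797685, minus strand, printed 5′ to 3′ on that strand for comparison with its neighbour) held no TATAAA. Capitals mark a TGTTTAC match on the opposite strand at -248 and GAGGAA at -31.
Muc20: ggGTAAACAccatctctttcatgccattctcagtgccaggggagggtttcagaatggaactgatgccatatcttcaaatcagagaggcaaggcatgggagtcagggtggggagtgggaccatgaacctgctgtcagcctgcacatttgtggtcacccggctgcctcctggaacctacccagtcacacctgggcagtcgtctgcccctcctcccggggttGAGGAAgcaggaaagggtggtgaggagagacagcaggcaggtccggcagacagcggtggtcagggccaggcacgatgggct

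Muc13, a short membrane mucin of the intestinal surface with EGF-like domains, lies on the same chromosome at chr16:33794037-33819934. It had 0.581, 0.540 and 1.71 CPM in libraries labelled Ptpro-KO, against 0.290, 0.359 and 0.748 CPM in libraries labelled WT. The labels overlapped, since replicates 1 and 2 labelled Ptpro-KO lay under the highest library labelled WT. The log2 fold change was 1.02 (SE 0.62, edgeR adjusted p = 0.367), on 9 to 65 reads per library. Without replicate 3 labelled Ptpro-KO, the highest library, it was 0.27 (edgeR adjusted p = 0.79).

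Muc16, known from human biology as the source of the CA125 antigen and as a mucin of mesothelium and airway, had 6, 50 and 3 reads in libraries labelled Ptpro-KO. The libraries labelled WT had 3, 0 and 0 reads. Replicate 2 labelled Ptpro-KO held most of them, and the labels overlapped in CPM. The ratio per total reads was 16.4, with a 95% interval of 5.35 to 81.8 for counting error. GENCODE M21 has 4 transcripts of Muc16, and 1 of them, of 1035 bases (chr9:18495455-18512885), was in the count files. Reads from the rest of the gene, which spans chr9:18495455-18674530, were not analysed here.

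Repeated stretches can make the position of a read ambiguous, so they were measured. Of all windows of 50 bases, 21.9% in the Muc5b transcript, 14.3% in Muc13, 10.1% in Muc4 and 1.28% in Muc1 occurred more than once within the same transcript. The other 6 genes had none. None of the 10 shared a window of 50 bases with a transcript of another gene. The window with most copies, 6 in each transcript, is printed for the 3 most repetitive genes, in lower case throughout because the whole window is the repeated unit.
Muc4: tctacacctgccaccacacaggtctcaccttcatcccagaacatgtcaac
Muc13: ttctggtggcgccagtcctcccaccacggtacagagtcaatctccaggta
Muc5b: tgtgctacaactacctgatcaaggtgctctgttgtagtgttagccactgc
The treatment of reads with several possible positions is not stated by the labels or files.

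The secreted mucins Muc5ac and Muc5b are neighbours in the gel-forming mucin cluster that runs from Muc6 to Muc5b at chr7:141633456-141873084. Muc5ac, the gel-forming mucin of stomach surface cells and airway goblet cells, lies at chr7:141788972-141819231. It had 5.45, 0.680 and 743 CPM in libraries labelled Ptpro-KO, from 197, 29 and 28192 reads. The libraries labelled WT had 0.0870, 0.438 and 0.0356 CPM, from 3, 11 and 1 reads. Replicate 3 labelled Ptpro-KO carried 99.1% of the summed CPM and was 136 times the next library. The lowest library labelled Ptpro-KO lay just above the highest labelled WT.

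For Muc5ac the log2 fold change was 10.44 (SE 3.22, edgeR adjusted p = 0.121). Without replicate 3 labelled Ptpro-KO it was 4.06 (adjusted p = 0.141). Muc6, the gland mucin of the stomach in the same cluster, had 3.04, 0.164 and 768 CPM in libraries labelled Ptpro-KO and 0 reads in every library labelled WT. The stomach proton pump gene Atp4b had 0, 0.0235 and 488 CPM in libraries labelled Ptpro-KO and 0 reads in all libraries labelled WT, and Tff1, the trefoil peptide of stomach surface cells, had 9.13, 0.610 and 2797 CPM against 0.174, 0.239 and 0 CPM in libraries labelled WT. The part of stomach cells in the Muc5ac values was not tested.

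Muc5b, the gel-forming mucin of airway and salivary glands, lies at chr7:141839070-141873084. It peaked in another library than Muc5ac, with 0.111, 24.8 and 3.43 CPM in libraries labelled Ptpro-KO, against 0.116, 0.159 and 0.214 CPM in libraries labelled WT. Replicate 1 labelled Ptpro-KO, on 4 reads, was level with the libraries labelled WT, on 4, 4 and 6 reads, so the labels overlapped. Per total reads the ratio was 70.9, with a 95% interval of 42.1 to 130.2 for counting error. Replicate 2 labelled Ptpro-KO alone held 1057 of the 1191 reads. By the authors' FPKM the labels differed less than by the counts. Muc5b had 0.0864, 1.86 and 0.285 FPKM in libraries labelled Ptpro-KO, against 0.0866, 0.0691 and 0.0942 FPKM in libraries labelled WT. The cause of this gap between the measures was not tested.

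The library with the Muc5b peak also had most reads of a list of 12 thyroid and airway genes, 794 CPM, against 10.5 and 32.6 CPM in replicates 1 and 3 of its label and 5.97 to 7.33 CPM in libraries labelled WT. Tg made up most of that sum. Foxj1, the regulator of motile cilia, had 0.0830, 5.72 and 0.158 CPM in libraries labelled Ptpro-KO and 0.145, 0.0797 and 0 CPM in libraries labelled WT. Other airway genes of the list were mixed in that library. Dnah5, a motor of motile cilia, had 11, 0 and 10 reads in libraries labelled Ptpro-KO and 1, 1 and 4 under WT. The club cell gene Scgb1a1 had 10, 0 and 21 reads in libraries labelled Ptpro-KO and 3, 1 and 6 under WT. Sftpb was highest there, with 3, 17 and 3 reads in libraries labelled Ptpro-KO and 2, 1 and 2 under WT. Nkx2-1 was also highest there, at 5.94 CPM against 4.23 to 5.06 CPM elsewhere. Scgb3a2 and Sftpc had at most 1 read in any library. The part of such cells in the Muc5b values was not tested.

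Aqp5 encodes the water channel in the apical membrane of salivary, lacrimal and airway gland cells and lies at chr15:99590782-99594829. It had 4.90, 21.9 and 25.6 CPM in libraries labelled Ptpro-KO, from 177, 935 and 972 reads. The libraries labelled WT had 0.0580, 0.199 and 0.320 CPM, from 2, 5 and 9 reads. Unlike Muc1, Muc4, Muc5ac and Muc5b it was not carried by 1 library, since replicates 2 and 3 labelled Ptpro-KO were within 1.17 times of each other. The means were 17.5 ± 11.1 CPM for the label Ptpro-KO and 0.193 ± 0.131 CPM for WT (SD, n = 3 each).

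Aqp5 rose by 6.51 on the log2 scale (SE 0.92, edgeR adjusted p = 0.0295). The call depended on which library was left out: the adjusted p was 0.0498 and 0.0477 without replicates 1 and 3 labelled Ptpro-KO, and 0.0689 without replicate 2. It was 0.0677, 0.109 and 0.134 without WT replicates 1, 2 and 3. The log2 fold change stayed between 6.04 and 7.11 over these 6 fits, and DESeq2 gave an adjusted p of 1.54e-14. Whether the size of change differs between Aqp5 and the mucins was not tested.

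**Figure D3:**
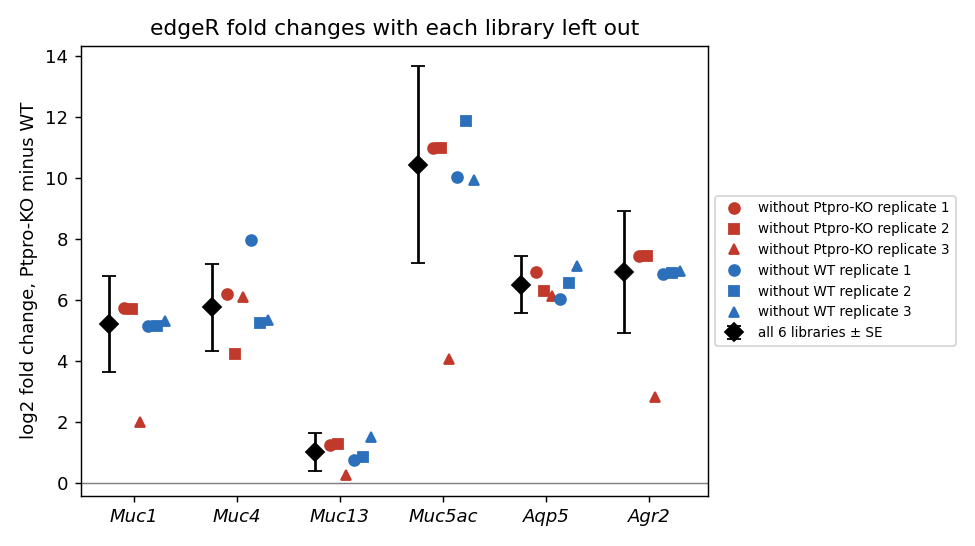
Log2 fold change (Ptpro-KO minus WT) of the 6 tested genes with all 6 libraries (black, with SE) and with each library left out (red and blue). Aqp5 lies between 6.04 and 7.11 in all fits, whereas Muc1, Muc5ac and Agr2 are at 2.01, 4.06 and 2.82 without replicate 3 labelled Ptpro-KO.

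The Aqp5 start region (chr15:99590778-99591077, plus strand, RefSeq, GRCm38.p6) is printed as that of the gene that rose. It was rich in CG: 79.7% of its bases were G or C and it held 46 CG dinucleotides, against medians of 52.7% and 7 over the 32851 windows. Muc1, Muc4, Muc20 and Agr2 had 55.7%, 43.7%, 59.3% and 47.3% G or C. Capitals mark the GC box GGGCGG at -77 and -34 and its reverse complement at position 38 after the RefSeq start. In GENCODE M21 the counted Aqp5 transcripts begin earlier, at 99590849 and 99590782. Most of this window, with the GC boxes at -77 and -34, therefore lies inside their annotated span.
Aqp5: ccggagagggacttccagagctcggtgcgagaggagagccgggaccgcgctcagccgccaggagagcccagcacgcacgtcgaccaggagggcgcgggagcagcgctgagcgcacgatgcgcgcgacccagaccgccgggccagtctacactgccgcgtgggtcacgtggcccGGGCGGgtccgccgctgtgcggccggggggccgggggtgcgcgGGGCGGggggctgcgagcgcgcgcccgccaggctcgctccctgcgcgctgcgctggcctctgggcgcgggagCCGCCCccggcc

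Agr2, a disulfide isomerase of the endoplasmic reticulum that mouse intestinal goblet cells need to make Muc2, lies at chr12:35992907-36004087. It had 2.32, 5.16 and 185 CPM in libraries labelled Ptpro-KO, against 0.493, 0.518 and 0.570 CPM in libraries labelled WT. Replicate 3 labelled Ptpro-KO was 35.8 times the next library, and replicates 1 and 2 were also above all libraries labelled WT. The log2 fold change was 6.92 (SE 1.99, edgeR adjusted p = 0.106). Without replicate 3 labelled Ptpro-KO it was 2.82 and passed (SE 0.42, adjusted p = 0.0472). The Agr2 start region (chr12:35992675-35992974, plus strand) is shown because Agr2 passed in that fit, with the GAGGAA at -120 in capitals. None of the other 5 motifs was found in this window.
Agr2: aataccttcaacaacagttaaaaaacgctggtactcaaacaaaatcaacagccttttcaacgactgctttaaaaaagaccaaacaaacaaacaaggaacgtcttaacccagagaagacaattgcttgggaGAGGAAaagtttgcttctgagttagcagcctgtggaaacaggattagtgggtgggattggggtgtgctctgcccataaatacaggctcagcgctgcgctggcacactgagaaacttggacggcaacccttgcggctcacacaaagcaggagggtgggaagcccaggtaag

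Tff3, the trefoil peptide that goblet cells release with mucins, is the first gene of the trefoil cluster Tff3, Tff2 and Tff1 at chr17:31125306-31165277. It had 2, 0 and 13 reads in libraries labelled Ptpro-KO and 0 reads in all 3 labelled WT. Set against a floor of 3 reads over the WT label, it was at least 4.17-fold higher per total reads, and the labels overlapped at 0. The bound rests on replicate 3, with 13 of the 15 reads, and the 2 reads without it lie under the floor. Its neighbour Tff2, the trefoil peptide of gastric gland mucus, had 3.68, 1.15 and 1242 CPM in libraries labelled Ptpro-KO. Libraries labelled WT had 0.0290, 0 and 0 CPM of Tff2.

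The other mucins and mucin-like genes tested did not move together. The tested genes were Muc2, Muc15, Muc19, Ovgp1, Emcn, Mcam, Cd164 and Podxl, and Emcn is also on the endothelial list. Muc6 and Mucl1 were not tested. They had 110, 7 and 29128 and 10, 2 and 6 reads in libraries labelled Ptpro-KO, against 0, 0 and 0 and 1, 0 and 0 under WT. Muc3 and Havcr1, also untested, overlapped between labels. Of the 8 tested, none rose or fell by edgeR, 2 had an unadjusted p under 0.05, the same share as the 25.0% of all tested genes, and DESeq2 called 1 lower, Muc15, against 7.44% of its genes. Muc15, a membrane mucin, had 4.90, 1.95 and 3.08 CPM in libraries labelled Ptpro-KO, below the 9.16, 6.34 and 11.4 CPM in libraries labelled WT (log2 fold change -1.44, edgeR adjusted p = 0.103). All 3 libraries labelled Ptpro-KO lay below those labelled WT in 15.7% of tested genes. Muc2, the gel-forming mucin of the intestine, had 0.775, 1.17 and 0.817 CPM in libraries labelled Ptpro-KO, against 0.145, 0.558 and 0.427 CPM in libraries labelled WT (adjusted p = 0.179).

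Mucin proteins gain their sugars from GalNAc transferases (Galnt genes), which start a chain, and from core enzymes that extend and branch it. Of 21 tested enzymes 1 rose and none fell by edgeR, a share near the 4.10% called over all genes. Of these 21, 7 had an unadjusted p under 0.05, against 25.0% of all tested genes, and DESeq2 called 6 higher, against 9.12% of its genes. The median log2 fold change was 0.35, against 0.03 over all tested genes. Gcnt1, the enzyme that makes the branched core 2 chain, rose to 51.9, 54.0 and 28.8 CPM in libraries labelled Ptpro-KO, against 8.0, 10.7 and 4.70 CPM in libraries labelled WT (log2 fold change 2.52, SE 0.39, edgeR adjusted p = 0.0333). The labels did not overlap, and the adjusted p was 0.0799 to 0.133 in 5 of the 6 fits without 1 library.

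B3gnt3, which extends core 1 chains, had 19.6, 63.9 and 64.5 CPM in libraries labelled Ptpro-KO, against 10.2, 8.21 and 9.93 CPM in libraries labelled WT (log2 fold change 2.38, edgeR adjusted p = 0.0517). Galnt4 had 42.3, 54.1 and 129 CPM in libraries labelled Ptpro-KO, against 19.4, 17.5 and 17.8 CPM in libraries labelled WT (log2 fold change 2.04, adjusted p = 0.0607). Without replicate 3 labelled Ptpro-KO, Galnt4 passed at a smaller log2 fold change of 1.40 (adjusted p = 0.0285), and B3gnt3 passed without replicate 1 (adjusted p = 0.0415). Neither gene passed by edgeR in its other fits without 1 library. Gcnt3, the core enzyme of mucus-producing tissue, was highest in the library with the Muc5ac peak, with 4.54, 2.02 and 211 CPM in libraries labelled Ptpro-KO and 0.174, 0.478 and 0.427 CPM in libraries labelled WT.

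Of 24 genes of mucous secretion and its regulators, 17 were tested and none passed by edgeR. Among them 10 had an unadjusted p under 0.05, against 25.0% of all tested genes, and DESeq2 called 8 of the 14 to which it gave an adjusted p, against 9.12% of its genes. Tff1, Tff2, Spink4, Dmbt1, Clca2 and Bpifb1 met the filter only through the label Ptpro-KO. Neither the direction of the list nor these counts of its tested genes are therefore read as a result. The list summed to 311, 713 and 7284 CPM in libraries labelled Ptpro-KO, with replicate 3 far above the rest, and to 227 to 277 CPM in libraries labelled WT. Pigr, the receptor that carries IgA into secretions, had 4.40, 113 and 306 CPM in libraries labelled Ptpro-KO, against 1.13, 0.996 and 0.498 CPM in libraries labelled WT (log2 fold change 7.32, edgeR adjusted p = 0.0633). The adjusted p was 0.0498, 0.109 and 0.0905 without replicates 1, 2 and 3 labelled Ptpro-KO. It was 0.145, 0.187 and 0.23 without WT replicates 1, 2 and 3. Spdef, a transcription factor of mouse goblet cells, had 4.37, 1.83 and 25.5 CPM in libraries labelled Ptpro-KO and 4.90, 1.43 and 1.53 CPM in libraries labelled WT, so the labels overlapped. Ern2, the stress sensor of mucous cells, had 0.720, 0.0938 and 51.2 CPM in libraries labelled Ptpro-KO and 0 reads in every library labelled WT.

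**Figure D4:**
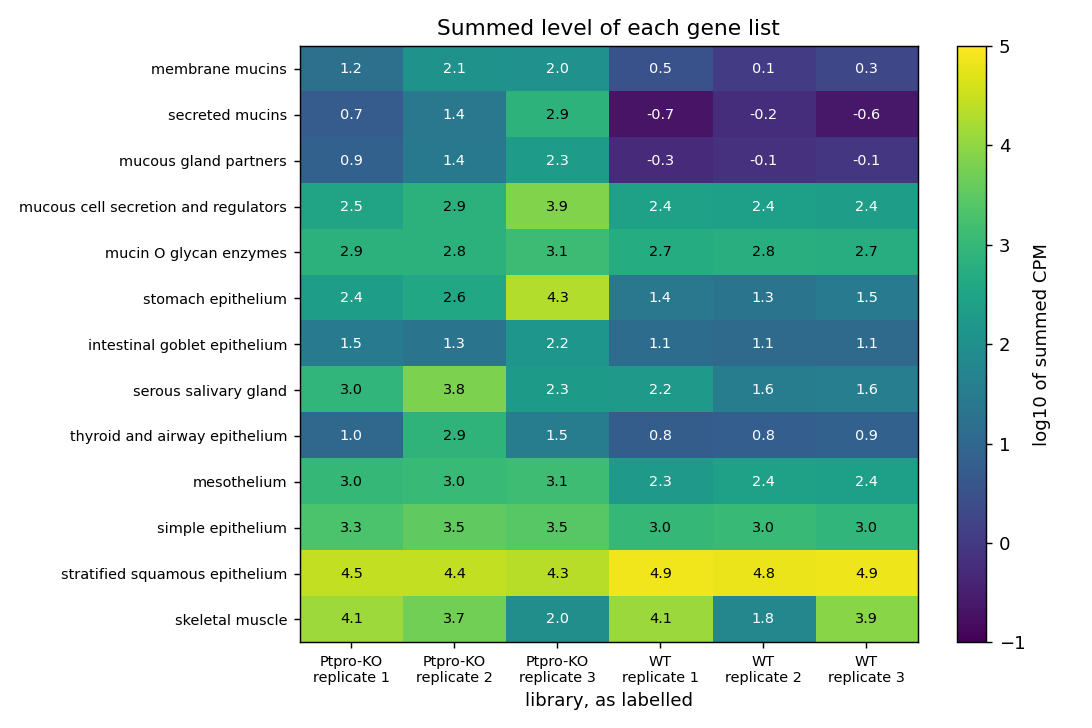
Log10 of the summed CPM of each gene list (rows) in each library (columns), with the value printed in each cell. The stomach list stands at 4.3 in replicate 3 labelled Ptpro-KO against 2.4 and 2.6 in replicates 1 and 2 and 1.3 to 1.5 in libraries labelled WT, and the thyroid and airway list at 2.9 in replicate 2 against 1.0 and 1.5 in the others of that label.

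Some markers of other epithelia passed the test. Keratins and adhesion genes of simple epithelium rose in 4 of 14 tested (Krt8, Krt18, Krt19 and Epcam), against 1.81% of all tested genes, and none fell. Krt19, Krt20 and Cldn3 met the filter only through the label Ptpro-KO. Cdh1, Cldn4, Ehf, Krt20, Prom1 and Tspan8 of that list overlapped between labels. None of the 3 tested thyroid and airway genes passed by edgeR (1 had an unadjusted p under 0.05, and DESeq2 called 0). Krt8 had 109, 456 and 583 CPM in libraries labelled Ptpro-KO, against 0.725, 0.638 and 0.392 CPM in libraries labelled WT (log2 fold change 9.34, SE 0.86, edgeR adjusted p = 0.0125). The list summed to 1982, 3399 and 2830 CPM in libraries labelled Ptpro-KO, against 894 to 1109 CPM in those labelled WT. Among 6 tested stomach genes 1 rose: Psca, a surface protein also found outside the stomach, had 199, 394 and 493 CPM in libraries labelled Ptpro-KO and 24.2, 19.4 and 28.9 CPM in libraries labelled WT (log2 fold change 3.90, SE 0.39, adjusted p = 0.0136). All 6 had an unadjusted edgeR p under 0.05. The others, Tff1, Tff2, Gkn1, Pgc and Ctse, met the filter only through the label Ptpro-KO, so these counts are not read as a result. The adjusted p missed 0.05 in 4 of the 6 fits without 1 library for Krt6b, Krt8, Krt19 and Psca, in 3 for Krt18 and in all 6 for Epcam. Like Aqp5, Psca was high in all 3 libraries labelled Ptpro-KO.

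Salivary gland markers did not form 1 pattern. Prol1, Smr2, Dcpp2 and Prb1, all genes of mouse salivary secretions, had 0 reads in all 6 libraries. Dcpp1, Dcpp3 and Pip of the list had 11, 7 and 2 reads in replicate 2 labelled Ptpro-KO and 0 elsewhere. Scgb3a1 was highest in that library too, with 16, 70 and 9 reads in libraries labelled Ptpro-KO and 4, 0 and 0 under WT. Bpifa1, Bpifa2, Smr3a, Car6 and Egf were highest in a library labelled WT. Lpo, the lactoperoxidase gene, had 0.387, 0.868 and 0.870 CPM in libraries labelled Ptpro-KO, below the 14.5, 3.75 and 1.99 CPM in libraries labelled WT (log2 fold change -3.25, edgeR adjusted p = 0.0894). Ltf had 867, 6469 and 164 CPM in libraries labelled Ptpro-KO and 119, 26.7 and 8.04 CPM in libraries labelled WT. The list summed to 902, 6487 and 182 CPM in libraries labelled Ptpro-KO and to 167, 35.5 and 35.9 CPM in libraries labelled WT. Ltf was most of each sum except that of WT replicate 3.

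Intestinal goblet genes summed to 28.5, 20.5 and 143 CPM in libraries labelled Ptpro-KO, against 11.7 to 13.6 CPM in libraries labelled WT, and none of 6 tested passed by edgeR (4 had an unadjusted p under 0.05, and DESeq2 called 1 higher, Clca1). Muc2 and Spink4 of these met the filter only through the label Ptpro-KO. A mesothelial list, of interest because mesothelium makes Muc16, summed to 983, 1120 and 1397 CPM in libraries labelled Ptpro-KO, against 178, 265 and 244 CPM in libraries labelled WT. The 3 of its 7 tested genes that rose were the keratins Krt8, Krt18 and Krt19, which simple epithelium shares. These keratins made up most of each sum labelled Ptpro-KO and little of those labelled WT. Wt1, Upk3b, Upk1b, Lrrn4 and Cpe of the list overlapped between labels. Msln, mesothelin, had 143, 51.3 and 3.16 CPM in libraries labelled Ptpro-KO and 1.51, 0.996 and 0.570 CPM in libraries labelled WT (edgeR adjusted p = 0.0738, and 0.0285 without replicate 3 labelled Ptpro-KO). Msln was highest in replicate 1 labelled Ptpro-KO, not in replicate 2, where Muc16 was highest. The part of these cell types in the mucin and Aqp5 values was not tested.

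The genes closest in profile to 4 of the mucin and gland genes were taken from 13820 genes by the root mean square difference of centred log2 CPM over the 6 libraries, in which the 3 libraries of a label share that label. Muc1 was closest to Agr2 (0.62 log2 units), Fer1l4 (0.66), Lgals4 (0.72), Rhpn2 (0.72) and Pls1 (0.85). Muc5ac was closest to Tff1 (0.93), Gcnt3 (1.33), Agr2 (1.89), Muc1 (2.35) and Vsig2 (2.46). Aqp5 had other neighbours, Cd177 (0.91), Lrrc26 (0.94), Krt18 (1.03), Atp6v0d2 (1.03) and Psca (1.23). Muc16, on 62 reads in all, was closest to 2010002M12Rik (0.27) and Nos2 (0.34).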

How the data were processed

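RNA of 6 tumours, 3 per label, was sequenced on an Illumina HiSeq 2500. Extraction used RNAiso Plus and DNase, per the labels' protocols. The aligner was Bowtie 0.12.2 and the build mm10, per the submitters' processing notes. Whole counts of reads on each Ensembl transcript were deposited sample by sample, and the RPKM column, also deposited by the authors, equals the count over transcript length and library total. A further table deposited by the authors holds FPKM per gene. How it was made, how multiply placed reads were assigned and whether strand was used are not stated in the labels or files. A total of 4 value columns in the authors' gene tables matched no sample and were left aside.

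Counts of 100249 transcripts were summed per symbol. GENCODE M21 (GRCm38) held 97.2% of them and gave positions. Genes were filtered with filterByExpr (minimum 10 counts, 15 in total), scaled by TMM and compared, Ptpro-KO minus WT, by quasi-likelihood in edgeR 4.0.16 (R 4.3.3), with Benjamini-Hochberg adjustment over 17663 genes and a threshold of 0.05. Alternatives used DESeq2 1.42.0, limma 3.58.1 on log2(FPKM + pseudocount), with pseudocounts of 1 and 0.1, further scalings and filters, a replicate block and each library left out. Scripts were tested on simulated data, where edgeR called 2 of 100 tested genes with 2-fold changes and 28 of 96 with 4-fold changes. A gene that did not pass may therefore still have changed. For class ratios 1 read was added to each sum. Intervals are exact, at 95%, and cover counting error only. Depth of 25745240 to 39827467 reads per library leaves genes under about 10 reads imprecise.

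The genes and lists were chosen with earlier results of these data known. Named were the 10 genes, Ptpro, up to 4 genes per list with the smallest p, list genes at 0 reads throughout, and the 5 nearest profiles of 4 genes. Muc6, Gcnt3, Pgc, Atp4b, Foxj1, Dnah5, Scgb1a1, Cdh1, Cldn4, Ehf, Spdef and Ern2 were also named after their values were seen. So were Clca2, Bpifb1, Wt1, Upk3b, Upk1b, Lrrn4 and Cpe. The same holds for Sftpb, Sftpc, Scgb3a2, Dcpp1, Dcpp3, Pip, Scgb3a1, Bpifa2, Smr3a, Car6 and Egf. It also holds for Krt20, Prom1, Tspan8, Cldn3, Ctse, Muc3, Muc19, Mucl1, Ovgp1, Cd164 and Havcr1. The result of 1 list gene is left out. Libraries were taken as separate mice, from the group size of 3 in the design text, and p-values measure the spread between them. Libraries of a label were not duplicates, with a chi-square per degree of freedom of at least 66.9.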

Additional observations from a re-analysis of the deposited data

How the results depend on the processing

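Over all genes, 320 were higher and 405 lower by edgeR in libraries labelled Ptpro-KO, and 1 of the 10 mucin and gland genes was called. Under DESeq2 the counts were 1734 higher, 1415 lower and 4 of the 10 (Aqp5, Muc4, Muc20 and Muc5b), where 6 of the 10 had an adjusted p. Muc1, Muc5ac, Agr2 and Tff3 had none. Without 1 library, edgeR called 0 to 253 genes higher, 0 to 243 lower and 0 to 2 of the 10. It called 0 genes without replicate 2 labelled Ptpro-KO, WT replicate 2 or WT replicate 3, where 4361, 3368 and 3076 genes had an unadjusted p under 0.05. DESeq2 without 1 library was added after seeing the data. Without replicates 1, 2 and 3 labelled Ptpro-KO it called 1326, 1781 and 1633 genes higher, 1220, 1488 and 1540 lower, and 7, 5 and 7 of the 10. Without WT replicates 1, 2 and 3 it called 1770, 1272 and 1067 higher, 1235, 964 and 949 lower, and 5 of the 10 each time. The other scalings and filters and limma kept Aqp5 as the only one called of the 10, and no tested gene of the 10 changed sign under any alternative.

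Without 1 library, edgeR log2 fold changes were 2.01 to 5.75 for Muc1, 4.25 to 7.96 for Muc4, 4.06 to 11.86 for Muc5ac, 6.04 to 7.11 for Aqp5, 2.82 to 7.46 for Agr2 and 0.27 to 1.53 for Muc13. Muc1, Muc5ac and Agr2 had no DESeq2 adjusted p with all 6 libraries, so their calls without 1 library have no counterpart there. DESeq2 gave Muc4 5.81. In its fits without replicates 1, 2 and 3 labelled Ptpro-KO it called Muc1 at 5.75, 5.71 and 2.01, Muc4 at 6.25, 4.28 and 6.17, Muc5ac at 10.92, 10.93 and 4.05, and Agr2 at 7.46, 7.44 and 2.82. Without WT replicates 1, 2 and 3 it called Muc1 at 5.15, 5.16 and 5.30, and Muc4 at 7.99, 5.27 and 5.39. The Muc4 value of 7.96 came without WT replicate 1. The secreted to membrane ratio differed by 0.68 to 3.18 log2 units, and on RPKM by 2.63. The causes were not tested.

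With a replicate block, 128 genes were higher and 101 lower, and Aqp5 kept its call (adjusted p = 0.0448). Same-numbered libraries had correlations of deviations of 0.539, 0.08 and -0.243, and 0.539 was the highest of any pair across labels. Replicate 1 of each label, and no other library, carries a sample code that begins with LB. With 3 libraries per label, these values cannot settle whether the numbers pair the samples. Depth limits Muc16, Muc20 and Tff3, with at most 3 reads in any library labelled WT.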
